A study of Mus musculus with 18 samples.

Results

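RNA-seq of epididymal fat and liver of mice on a high-fat or a normal diet was used to ask in which genes the diet response of fat differed from that of liver. For each gene the difference between high-fat diet-prone (HP) and normal diet (ND) fat libraries was taken, and the difference between HP and ND liver libraries was subtracted from it, on the scale log2(FPKM + 1). FPKM is the number of sequenced fragments scaled by transcript length and by the size of the library. A positive tissue difference means a more positive response in fat, and a negative one a more positive response in liver. All 9875 genes with 1 FPKM or more in at least 3 of the 6 fat and at least 3 of the 6 liver libraries were compared, of 23474 in the table. The tissue difference rests on 12 of the 18 libraries of the series, 3 in each of fat HP, fat ND, liver HP and liver ND. It was computed again over 11 libraries, without fat ND 1, which leaves 2 fat ND libraries. The other 6 libraries, of high-fat diet-resistant mice, entered only an alternative fit.

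The mice were male, of the strain C57BL/6J (spelled C56BL/6J in the strain field of the labels), and 17 weeks old. The HP group had been fed the high-fat diet for 12 weeks from 5 weeks of age and was prone to it, while the ND group had the normal diet over the same time. The labels do not say how prone animals were told apart, whether a fat and a liver library of the same number are from 1 animal, or whether the 3 libraries of a group are from different animals. The p-values then reflect variation between libraries, part or all of which may be technical.

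Fat cells store surplus energy as triglyceride, and in obesity the fat pad also fills with macrophages that take up and digest lipid in their lysosomes. The liver receives fatty acids that fat can no longer hold, stores part of them in lipid droplets, and makes cholesterol, bile acids and most plasma proteins. Both tissues respond to insulin, to inflammatory signals and to low sterols, upon which the transcription factor SREBP2 drives cholesterol synthesis genes.

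Fat libraries carried RNA of neighbouring tissues to different degrees. The summed level of the 4 spermatid markers Prm1, Prm2, Tnp1 and Tnp2 was 92413 FPKM in fat ND 1, 2282 FPKM in fat ND 3, 1738 FPKM in fat HP 1, and no more than 128 FPKM in the other fat HP and ND libraries. The summed level of 7 epididymal epithelium markers was 1562 FPKM in fat HP 2 and 18656 FPKM in fat ND 1, and at most 12.6 FPKM in the other fat HP and ND libraries. Leaving out fat HP 2 as well as fat ND 1, the tissue difference passed in 1394 genes and the fat change in 1440. The summed level of 4 adipocyte markers was 14984 to 17558 FPKM in fat HP libraries, against 18688 and 29573 FPKM in fat ND 3 and 2 and 3533 FPKM in fat ND 1. The median correlation of fat ND 1 with the other fat libraries was 0.526, against 0.879 to 0.909 for the other fat libraries and 0.959 to 0.975 among liver libraries. In liver, 5 skeletal muscle markers summed to 98.9 and 19.9 FPKM in liver HP 2 and 3, against at most 0.955 FPKM in each of the other liver libraries of the comparison. The summed level of 6 mesothelial markers was 9.80 to 14.8 FPKM in fat HP libraries, against 30.4 to 78.8 FPKM in fat ND libraries, and its part in the results was not tested. The albumin gene Alb was listed at 0 in liver HP 3 and at 21466 to 27895 FPKM in the other HP and ND livers, so an exact 0 in the table can be a failed estimate. Alb was at 2.17 to 3.50 FPKM in fat HP libraries and at 8.40 and 5.05 FPKM in fat ND 2 and 3, near 0 beside liver.

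The prone diet response of fat differed from that of liver in both directions. Over 11 libraries the tissue difference passed the threshold (limma, Benjamini-Hochberg adjusted p below 0.05 over the 9875 genes) in 1203 genes (12.2%) with a positive and 904 genes (9.15%) with a negative difference. Over all 12 libraries it passed in 191 genes (1.93%) with a positive and 18 genes (0.182%) with a negative difference, and each of these 209 genes was called with the same sign over 11 libraries. The relative weight of a fat library, estimated from the spread, was 0.325 over 12 libraries and 0.831 over 11. Of the 1203 positive differences, 662 were called in fat alone, 248 in liver alone (as lower in HP livers), 134 in both with opposite signs, 70 in both with the same sign and 89 in neither tissue on its own. Of the 904 negative ones, 304 were called in fat alone, 395 in liver alone, 115 in both with opposite signs, 15 in both with the same sign and 75 in neither. The median tissue difference over all genes was 0.05 over 11 libraries. Within each tissue, deviations of same-numbered HP and ND libraries from their group means correlated at 0.101 to 0.544. In fat only number 1 correlated best with its own number. Each count was also taken from a fit with the replicate number as a block within each tissue, called the block in what follows. With the block, 799 positive and 639 negative tissue differences passed over 11 libraries. The median was 0.30 after rescaling the libraries to the same sum, which made 76.9% of the calls positive in place of 57.1%.

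Within each tissue, HP fat had 1426 higher (14.4%) and 778 lower genes (7.88%) than ND fat over 11 libraries, and 226 (2.29%) and 7 (0.0709%) over 12. Among the calls in fat over 11 libraries 64.7% were higher, against 75.4% after rescaling to the same sum and 52.2% after quantile normalization. With the block 626 genes were higher and 214 lower in HP fat over 11 libraries. HP livers had 1620 higher (16.4%) and 1206 lower genes (12.2%) than ND livers in the fit over 11 libraries, and 1540 (15.6%) and 1163 (11.8%) over 12. Among the liver calls over 11 libraries 57.3% were higher, against 32.8% after rescaling, which shifted the median over all genes by -0.18 in liver, and 49.0% after quantile normalization. With the block 2079 genes were higher and 1787 lower in HP liver over 11 libraries, and 2129 and 1963 over 12. Without liver HP 2 and 3, 167 genes were called in liver, with 1 HP library left there.

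Of the genes past the threshold in both tissues over 11 libraries, 478 moved alike and 249 oppositely. There were 348 genes (3.52%) higher in both HP tissues and 130 (1.32%) lower in both, against 134 genes (1.36%) higher in fat and lower in liver and 115 (1.16%) lower in fat and higher in liver. Over 12 libraries the counts were 43 (0.435%), 1 (0.0101%), 18 (0.182%) and 2 (0.0203%) in the same order, with 39 alike and 16 opposite genes shared between the fits. With the block 194 genes were higher and 33 lower in both tissues over 11 libraries, 91 were higher in fat and lower in liver, and 63 were lower in fat and higher in liver. In all 249 opposite genes the tissue difference itself passed the threshold. Called changes of opposite sign in the same fit add up in the difference, so this outcome was nearly fixed and is no further support. Of the 478 alike genes, 85 had a tissue difference past the threshold. Across the 9875 genes the fat and liver responses had a Pearson correlation of 0.135 over 11 libraries and -0.102 over 12, and genes are not independent replicates. The counts of opposite genes depended on single libraries: over 11 libraries they were 110 without fat HP 3, 138 without fat HP 2, 127 without liver ND 1, 138 without liver ND 3, 140 without liver HP 2 and 409 without fat ND 3. Alike genes numbered 226 without fat HP 3, 281 without fat HP 1, 279 without liver ND 1, 298 without liver ND 3 and 288 without liver HP 2.

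**Figure D1:**
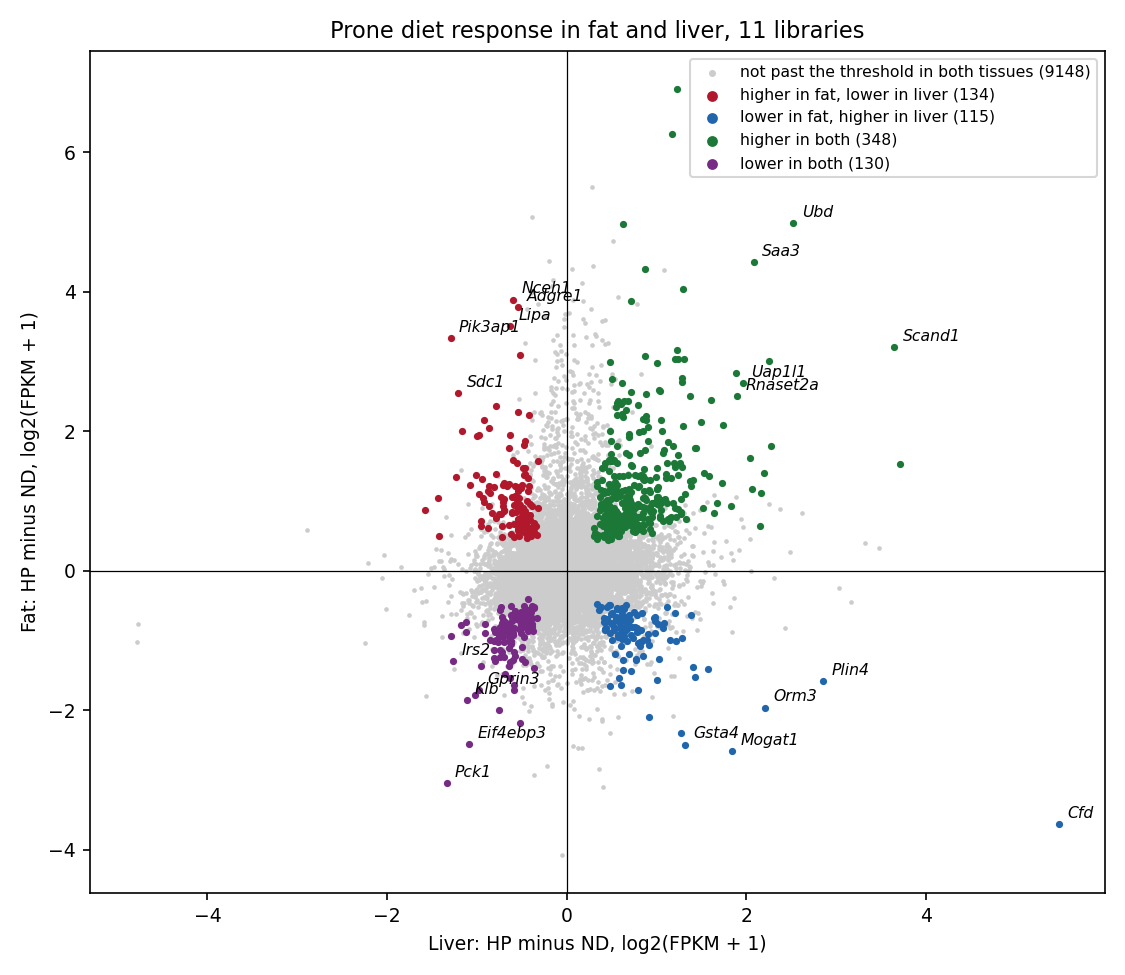
HP minus ND on log2(FPKM + 1) in liver (horizontal) against fat (vertical) for the 9875 genes compared, over 11 libraries; colours mark genes past the threshold in both tissues, with their number in the legend, and up to 5 genes of each class are named. Cfd lies alone at the lower right, lower in HP fat by 3.63 and higher in HP liver by 5.48.

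Among the 134 genes higher in HP fat and lower in HP liver, 8 were named: Pik3ap1, Nceh1, Adgre1, Lipa, Sdc1, Tfr2, Taok3 and Slc25a13. These had the largest tissue differences of those that met the rule for named genes, which required non-overlapping HP and ND groups in both tissues. Over 12 libraries Pik3ap1, Nceh1, Sdc1, Tfr2 and Slc25a13 were called in both tissues as well. For Lipa and Adgre1 the liver fall did not pass there (adjusted p = 0.102 and 0.134), nor did the fat rise for Taok3 (adjusted p = 0.0558). Lipa encodes lysosomal acid lipase, which frees cholesterol and fatty acids inside lysosomes. Its values were 365, 379 and 439 FPKM in fat HP libraries, against 36.4 and 31.2 FPKM in fat ND 2 and 3 and 1.82 FPKM in fat ND 1. In liver it had 91.0, 62.9 and 92.3 FPKM in HP libraries, against 133, 107 and 139 FPKM in ND libraries. HP fat lay above every liver library, and the tissue difference was 4.13 ± 0.27 (SE, log2, adjusted p = 3.00e-06, and 5.34 with adjusted p = 0.00747 over 12 libraries). Nceh1, the neutral cholesterol ester hydrolase of macrophages, had 57.4, 64.0 and 76.5 FPKM in fat HP libraries, against 2.65 and 4.54 FPKM in fat ND 2 and 3 and 0.542 FPKM in fat ND 1. In liver Nceh1 had 13.3, 9.53 and 11.9 FPKM in HP libraries, against 20.8, 16.3 and 16.7 FPKM in ND libraries. Its tissue difference was 4.48 ± 0.28 over 11 libraries (adjusted p = 2.57e-06) and passed over 12 as well (adjusted p = 0.000762). Fat lay above liver in HP libraries and below it in ND libraries.

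Adgre1 encodes F4/80, the surface receptor used to recognise mouse macrophages. It had 213, 195 and 259 FPKM in fat HP libraries, against 16.0 and 14.3 FPKM in fat ND 2 and 3 and 0.651 FPKM in fat ND 1. In liver Adgre1 had 1.58, 0.876 and 1.21 FPKM in HP libraries, against 2.06, 1.66 and 3.00 FPKM in ND libraries. The fat groups were far apart, and the liver groups lay close together without overlapping. In bulk tissue, fewer cells of a type and less RNA per cell cannot be told apart, and the same holds for more of either. Pik3ap1, an adaptor that links receptors of B and myeloid cells to PI3 kinase, had 38.6, 40.6 and 54.4 FPKM in fat HP libraries and 7.63, 3.88 and 8.28 FPKM in liver HP libraries, against 2.99 and 4.0 FPKM in fat ND 2 and 3 and 1.93 FPKM in fat ND 1 and 20, 11.5 and 20.8 FPKM in liver ND libraries. Its tissue difference of 4.62 ± 0.44 was the largest among the opposite genes that were named as higher in fat (adjusted p = 3.14e-05, and 0.00751 over 12 libraries).

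Tfr2 encodes transferrin receptor 2, with which hepatocytes sense iron-loaded transferrin. It had 12.2, 14.2 and 18.2 FPKM in fat HP libraries, against 0.637 and 1.06 FPKM in fat ND 2 and 3 and 1.18 FPKM in fat ND 1. The 3 fat ND libraries were alike here, fat ND 1 included. In liver Tfr2 had 119.8, 106 and 109.6 FPKM in HP libraries, against 156, 167 and 159 FPKM in ND libraries. The tissue difference was 3.61 ± 0.22 over 11 libraries and 3.53 ± 0.34 over 12 (adjusted p = 2.57e-06 and 0.000568). Sdc1, the cell-surface proteoglycan syndecan-1 that hepatocytes use to clear lipoprotein remnants, had 63.5, 46.0 and 62.7 FPKM in fat HP libraries, against 8.28 and 9.50 FPKM in fat ND 2 and 3 and 11.4 FPKM in fat ND 1. In liver Sdc1 had 44.4, 34.8 and 41.4 FPKM in HP libraries, against 99.6, 90.9 and 89.9 FPKM in ND libraries. Sdc1 was thus higher in fat than in liver in HP libraries and lower in fat than in liver in ND libraries (tissue difference 3.75 ± 0.22, adjusted p = 2.57e-06). Slc25a13, the mitochondrial aspartate-glutamate carrier citrin, and the kinase gene Taok3 had tissue differences of 3.15 ± 0.34 and 3.17 ± 0.33 (adjusted p = 8.41e-05 and 6.22e-05).

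Among the 115 genes lower in HP fat and higher in HP liver, 8 were named by the same rule. They were Cfd, Plin4, Mogat1, Orm3, Gsta4, Car3, Gsta3 and C2. Of these 8, Gsta4 was called in both tissues over 12 libraries too, and for the other 7 the fat fall did not pass there. With the block the fat falls of Plin4, Orm3 and Car3 did not pass over 11 libraries (adjusted p = 0.228, 0.0502 and 0.0552). Cfd encodes adipsin, the serine protease of the alternative complement pathway that fat cells secrete. It had 337, 349 and 251 FPKM in fat HP libraries, against 4074 and 3626 FPKM in fat ND 2 and 3 and 3048 FPKM in fat ND 1. In liver it had 193, 162 and 54.7 FPKM in HP libraries, against 1.78, 3.11 and 0.72 FPKM in ND libraries. Every HP fat library was below every ND fat library, fat ND 1 included, and every HP liver was above every ND liver, so that fat and liver lay closer together in HP than in ND libraries. The tissue difference was -9.11 ± 0.68 over 11 libraries (adjusted p = 7.37e-06) and -9.0 ± 1.27 over 12 (adjusted p = 0.00304), and the fat change alone did not pass over 12 libraries (adjusted p = 0.21). The adipocyte markers Adipoq and Plin1 were at or near 0 in these livers: Adipoq was at 1.40, 0 and 0.17 FPKM in liver HP libraries and 0 in all 3 liver ND libraries, and Plin1 did not exceed 0.40 FPKM in any of them. The other 2 adipocyte markers, Fabp4 and Cidec, were higher in HP liver: Fabp4 had 30.2 to 36.7 FPKM in HP libraries, against 6.53 to 9.89 FPKM in ND libraries, and Cidec had 71.8 to 115 FPKM in HP libraries, against 28.8 to 55.0 FPKM in ND libraries. The 4 markers summed to 107 to 152 FPKM in liver HP libraries, against 36.7 to 64.8 FPKM in liver ND libraries, and their part in the result was not tested.

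Plin4, a coat protein of lipid droplets, had 346, 427 and 375 FPKM in fat HP libraries, against 862 and 1511 FPKM in fat ND 2 and 3 and 62.8 FPKM in fat ND 1. In liver Plin4 had 31.5, 33.8 and 59.0 FPKM in HP libraries, against 4.36, 7.42 and 2.96 FPKM in ND libraries. Mogat1, an enzyme of triglyceride synthesis, had 4.08, 5.44 and 4.98 FPKM in fat HP libraries, against 38.5 and 30.0 FPKM in fat ND 2 and 3 and 3.95 FPKM in fat ND 1. In liver Mogat1 had 14.7, 16.1 and 23.5 FPKM in HP libraries, against 2.56, 8.23 and 3.32 FPKM in ND libraries. The HP and ND livers did not overlap for either gene, while fat ND 1 lay below the fat HP libraries. Their tissue differences were -4.44 ± 0.48 and -4.44 ± 0.49 over 11 libraries (adjusted p = 9.12e-05 and 0.000107) and did not pass over 12 (adjusted p = 0.2 and 0.125). Car3, the carbonic anhydrase that is abundant in fat cells, showed the same dependence: it had 2347 to 3013 FPKM in fat HP libraries, against 17765 and 10420 FPKM in fat ND 2 and 3 and 252 FPKM in fat ND 1. In liver Car3 had 2291 to 3005 FPKM in HP libraries, against 669 to 1620.2 FPKM in ND libraries. Its tissue difference was -3.60 ± 0.48 over 11 libraries (adjusted p = 0.000393) and -1.68 ± 1.44 over 12 (adjusted p = 0.488). The opposite call of Car3 was made only without fat ND 1.

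Gsta4, a glutathione transferase that removes the lipid peroxidation product 4-hydroxynonenal, had 3.64, 2.42 and 3.54 FPKM in fat HP libraries, against 22.4 and 22.4 FPKM in fat ND 2 and 3 and 41.2 FPKM in fat ND 1. In liver Gsta4 had 42.3, 49.1 and 47.2 FPKM in HP libraries, against 16.6, 20.2 and 17.1 FPKM in ND libraries. Fat was far below liver in HP libraries and at or above its level in ND libraries, with a tissue difference of -3.81 ± 0.22 over 11 libraries and -4.09 ± 0.40 over 12 (adjusted p = 2.48e-06 and 0.000568). Gsta3 had 21.2 to 26.0 FPKM in fat HP libraries, against 112 and 91.4 FPKM in fat ND 2 and 3 and 27.0 FPKM in fat ND 1. In liver Gsta3 had 937 to 1141 FPKM in HP libraries, against 445 to 698 FPKM in ND libraries (tissue difference -3.02 ± 0.28, adjusted p = 2.54e-05, and 0.0766 over 12 libraries). The acute-phase gene Orm3 and the complement gene C2 had tissue differences of -4.18 ± 0.40 and -2.99 ± 0.54 (adjusted p = 3.77e-05 and 0.00245). Transferase and orosomucoid genes have near-identical copies, between which the authors' counting could split fragments, so single members are uncertain.

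**Figure D2:**
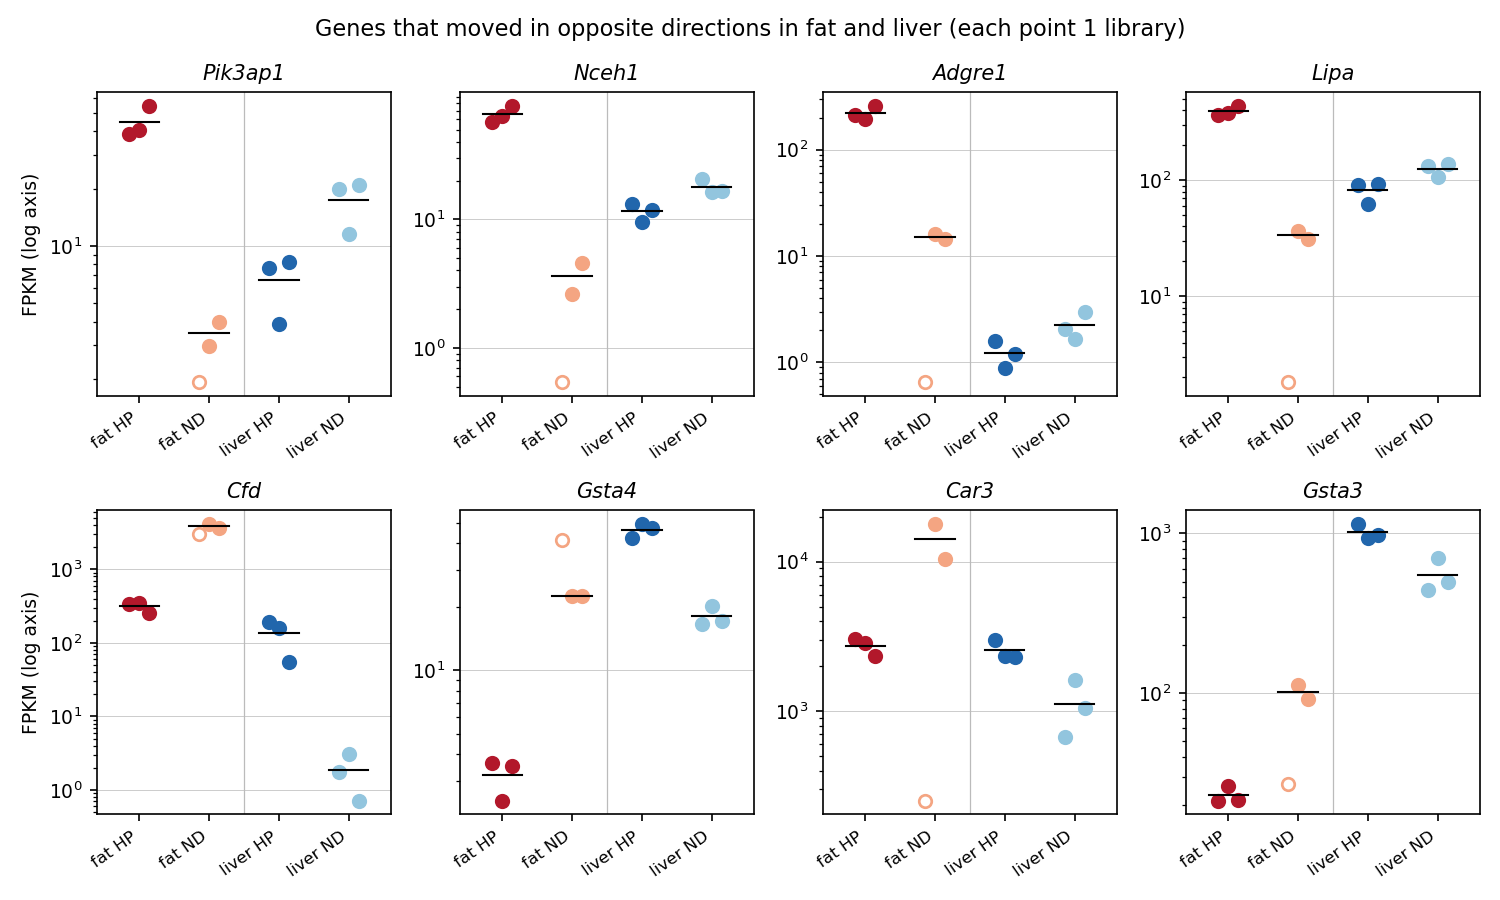
FPKM on log axes of 4 genes higher in HP fat and lower in HP liver (top) and 4 lower in HP fat and higher in HP liver (bottom); each point is 1 library, bars are means of 3 libraries (of fat ND 2 and 3 in fat ND), and the open circle is fat ND 1. Open circles lie below the other fat ND libraries for Lipa, Adgre1 and Car3, and close to or above them for Cfd and Gsta4.

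The genes higher in both HP tissues included the cytokine-induced Ubd and Saa3 and 9 of 22 cholesterol genes. Ubd, a ubiquitin-like modifier induced by inflammatory cytokines, had 265, 204 and 229 FPKM in fat HP libraries, against 8.25 and 4.80 FPKM in fat ND 2 and 3 and 1.43 FPKM in fat ND 1. In liver Ubd had 5.23, 10.7 and 10.5 FPKM in HP libraries, against 0.0836, 1.21 and 0.827 FPKM in ND libraries. Saa3, an acute-phase serum amyloid gene, had 101, 102 and 89.3 FPKM in fat HP libraries, against 4.25 and 2.96 FPKM in fat ND 2 and 3 and 2.73 FPKM in fat ND 1. In liver Saa3 had 7.81, 20.3 and 6.89 FPKM in HP libraries, against 1.57, 2.48 and 1.15 FPKM in ND libraries. HP and ND did not overlap in either tissue for both genes, which the choice of named genes required. Fat ND 1 was lowest among the fat ND libraries. The rise was larger in fat, with tissue differences of 2.46 ± 0.48 and 2.34 ± 0.52 over 11 libraries (adjusted p = 0.00415 and 0.00813) that did not pass over 12 (adjusted p = 0.124 and 0.207). Both genes were higher in both tissues in both fits.

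Scand1, a SCAN domain protein, rose by 3.21 ± 0.35 in fat and 3.65 ± 0.27 in liver. The collagen gene Col3a1 rose by 2.09 ± 0.35 in fat and 1.74 ± 0.27 in liver, and the histone gene H2afj by 1.8 ± 0.30 and 2.28 ± 0.22. Uap1l1 rose by 2.69 ± 0.31 and 1.96 ± 0.23. None of these 4 had a called tissue difference (adjusted p = 0.504, 0.614, 0.384 and 0.204), and the fat changes of all 4 passed only without fat ND 1, where they were at 29.0, 11.4, 25.1 and 28.9 FPKM. The ribonuclease genes Rnaset2a and Rnaset2b, near-identical copies that cannot be separated with certainty, rose by 2.51 and 2.84 in fat and 1.90 and 1.89 in liver.

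Of 22 cholesterol synthesis and uptake genes tested, 12 were higher and none lower in HP fat, and 15 were higher and 1 lower in HP liver, over 11 libraries. A set of 9 was higher in both: Nsdhl, Fdps, Msmo1, Idi1, Cyp51, Ebp, Mvk, Insig1 and Dhcr7. The median change was 0.75 in fat and 0.62 in liver, beside 0.02 and -0.02 over all genes. With the block 6 were higher in fat and 4 in both tissues. The fat rises of Nsdhl, Fdps, Idi1, Cyp51, Ebp and Mvk did not pass with it (adjusted p = 0.0996, 0.0646, 0.161, 0.168, 0.0761 and 0.138). Msmo1, the C4-methylsterol oxidase, had 23.9, 25.0 and 27.3 FPKM in fat HP libraries, against 7.54 and 7.70 FPKM in fat ND 2 and 3 and 8.5 FPKM in fat ND 1. In liver Msmo1 had 56.0, 76.5 and 56.3 FPKM in HP libraries, against 12.1, 15.0 and 16.4 FPKM in ND libraries. Idi1, the isopentenyl diphosphate isomerase, had 19.0, 20.7 and 19.9 FPKM in fat HP libraries, against 13.9 and 9.85 FPKM in fat ND 2 and 3 and 11.8 FPKM in fat ND 1. In liver Idi1 had 23.1, 22.3 and 23.3 FPKM in HP libraries, against 11.4, 7.32 and 11.3 FPKM in ND libraries. The groups of Msmo1 and Idi1 did not overlap in either tissue, also with fat ND 1, and their tissue differences did not pass (-0.43 ± 0.24 and -0.42 ± 0.27, adjusted p = 0.231 and 0.279).

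Over 12 libraries 15 of these 22 genes were higher in liver and 1, Dhcr7, was higher in fat too. Some members differed between tissues over 11 libraries. Hmgcs1, an early enzyme of the pathway, was higher in liver alone (1.64, against -0.46 in fat; adjusted p of the difference = 0.0004). Lss, the lanosterol synthase, rose in fat alone, by 1.25, with a tissue difference of 1.41 (adjusted p = 0.0487).

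Promoters of Idi1 and Nsdhl, higher in both tissues without the block, are shown beside that of Nceh1, higher in fat and lower in liver, and of Gsta3, lower in fat and higher in liver, since these genes carry the contrast between alike and opposite responses. Each is the 250 bases before the gene's start from RefSeq (GRCm38.p6), 5′ to 3′ in the direction of the gene. The search covered 4 motifs on both strands, and capitals mark the 3 of them that were found in these promoters. CCAAT is the box bound by NF-Y, which assists SREBP2, and it is shown on the other strand as ATTGG in all 4 promoters. CACGTG is the E-box core that factors such as TFEB bind, and TGACNNNGC is the core of the antioxidant response element. CACNCCAC is the core of the sterol response element that SREBP2 binds. The matches shown do not overlap.
Idi1: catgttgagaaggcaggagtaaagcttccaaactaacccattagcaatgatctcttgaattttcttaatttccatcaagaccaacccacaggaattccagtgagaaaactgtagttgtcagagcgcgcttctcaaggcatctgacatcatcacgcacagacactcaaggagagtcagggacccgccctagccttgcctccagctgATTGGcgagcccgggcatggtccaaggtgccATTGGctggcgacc
Nsdhl: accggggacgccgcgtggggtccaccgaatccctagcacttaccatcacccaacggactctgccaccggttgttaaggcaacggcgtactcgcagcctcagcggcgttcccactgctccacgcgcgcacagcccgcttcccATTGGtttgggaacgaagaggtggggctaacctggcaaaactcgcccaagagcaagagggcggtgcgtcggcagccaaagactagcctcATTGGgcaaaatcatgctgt
Nceh1: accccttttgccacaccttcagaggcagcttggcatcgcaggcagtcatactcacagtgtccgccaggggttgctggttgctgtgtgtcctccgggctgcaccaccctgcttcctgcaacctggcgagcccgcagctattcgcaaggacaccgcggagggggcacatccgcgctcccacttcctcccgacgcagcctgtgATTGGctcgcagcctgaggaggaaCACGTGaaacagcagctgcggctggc
Gsta3: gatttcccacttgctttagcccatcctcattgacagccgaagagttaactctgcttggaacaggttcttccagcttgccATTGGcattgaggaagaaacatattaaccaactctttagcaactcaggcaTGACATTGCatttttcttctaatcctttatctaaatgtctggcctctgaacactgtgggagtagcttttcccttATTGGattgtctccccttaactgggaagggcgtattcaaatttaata
Idi1 is at chr13:8885356-8885605 on the plus strand, Nsdhl at chrX:72918271-72918520 on the plus strand, Nceh1 at chr3:27182754-27183003 on the plus strand and Gsta3 at chr1:21240335-21240584 on the plus strand. Idi1 and Nsdhl each hold 2 CCAAT boxes, Nceh1 holds 1 CCAAT box and 1 CACGTG, and Gsta3 holds 2 CCAAT boxes and 1 antioxidant response core. In the table of 27025 promoters, 37.5% hold CCAAT, 6.86% hold CACGTG, 11.5% hold TGACNNNGC and 6.05% hold CACNCCAC. None of the 4 windows holds CACNCCAC, which says only that these letters are not in them, and a match is a description of these letters. The table held promoters for 15 of the 22 cholesterol genes, 20 of 28 lysosomal genes and 14 of 18 xenobiotic and glutathione genes, under 80% of each list, so a comparison of motif shares over the lists is void and none is given.

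The genes lower in both HP tissues included Pck1, Irs2 and Klb. Pck1, the cytosolic phosphoenolpyruvate carboxykinase that makes glucose in liver and glycerol for triglyceride in fat, had 266, 246 and 227 FPKM in fat HP libraries, against 2129.8 and 1954 FPKM in fat ND 2 and 3 and 77.2 FPKM in fat ND 1. In liver Pck1 had 482, 362 and 588 FPKM in HP libraries, against 1190.3, 917 and 1515 FPKM in ND libraries. Its log2 change was -3.05 ± 0.27 in fat and -1.34 ± 0.20 in liver, a larger fall in fat (tissue difference -1.71 ± 0.34, adjusted p = 0.00433). Irs2, an adaptor of the insulin receptor, had 10.6, 11.9 and 12.1 FPKM in fat HP libraries, against 24.3 and 36.4 FPKM in fat ND 2 and 3 and 2.13 FPKM in fat ND 1. In liver Irs2 had 1.32, 0.762 and 1.44 FPKM in HP libraries, against 5.04, 2.07 and 6.44 FPKM in ND libraries. Its changes of -1.30 ± 0.36 in fat and -1.26 ± 0.28 in liver did not differ past the threshold (adjusted p = 0.97). Klb, the co-receptor for the hormone FGF21, had 6.89, 8.0 and 6.04 FPKM in fat HP libraries, against 28.3 and 27.2 FPKM in fat ND 2 and 3 and 0.76 FPKM in fat ND 1. In liver Klb had 4.16, 3.15 and 4.05 FPKM in HP libraries, against 9.80, 7.45 and 11 FPKM in ND libraries. For Pck1, Irs2 and Klb, fat ND 1 was below the fat HP libraries, and no fat change of these 3 passed over 12 libraries (adjusted p = 0.572, 0.938 and 0.808). With the block the fat fall of Irs2 did not pass over 11 libraries (adjusted p = 0.0869).

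Eif4ebp3, a repressor of translation initiation, was the 1 gene called lower in both tissues over 12 libraries as well. It had 1.11, 0.307 and 0.165 FPKM in fat HP libraries, against 9.0 and 5.85 FPKM in fat ND 2 and 3 and 29.1 FPKM in fat ND 1. In liver Eif4ebp3 had 14.3, 15.3 and 9.88 FPKM in HP libraries, against 33.9, 27.3 and 25.4 FPKM in ND libraries. The groups did not overlap in either tissue, which the choice of named genes required. The fall was larger in fat over 11 libraries (tissue difference -1.40 ± 0.37, adjusted p = 0.0186, and 0.14 over 12). Gprin3, Slc25a25 (a mitochondrial ATP-magnesium/phosphate carrier), Glcci1 and the zinc finger gene Gzf1 completed the named genes lower in both, with changes between -1.71 and -0.84 in fat and between -1.12 and -0.81 in liver. With the block the fat falls of Slc25a25, Glcci1 and Gzf1 did not pass (adjusted p = 0.0722, 0.186 and 0.107). Of 21 glucose and insulin signalling genes, 9 were lower and 4 higher in HP fat, and 7 lower and 1 higher in HP liver over 11 libraries. A set of 5 was lower in both: Pck1, Irs2, Insr, Irs1 and Akt2. With the block 4 were lower and 2 higher in fat, 8 lower and 3 higher in liver, and 3 lower in both. Insr, the insulin receptor gene, changed by -1.26 ± 0.16 in fat and -0.49 ± 0.12 in liver, a difference past the threshold (adjusted p = 0.0208, and 0.0967 with the block). Akt1 was an opposite gene, with changes of 0.91 ± 0.16 in fat and -0.52 ± 0.12 in liver (adjusted p of the difference = 0.000544, and 0.0414 over 12 libraries), whose fat change did not pass with the block (adjusted p = 0.052). With it the difference did not pass over 12 libraries (adjusted p = 0.0797). Over 12 libraries 1 of the 21 genes was higher and none lower in fat, and 4 were lower in liver.

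**Figure D3:**
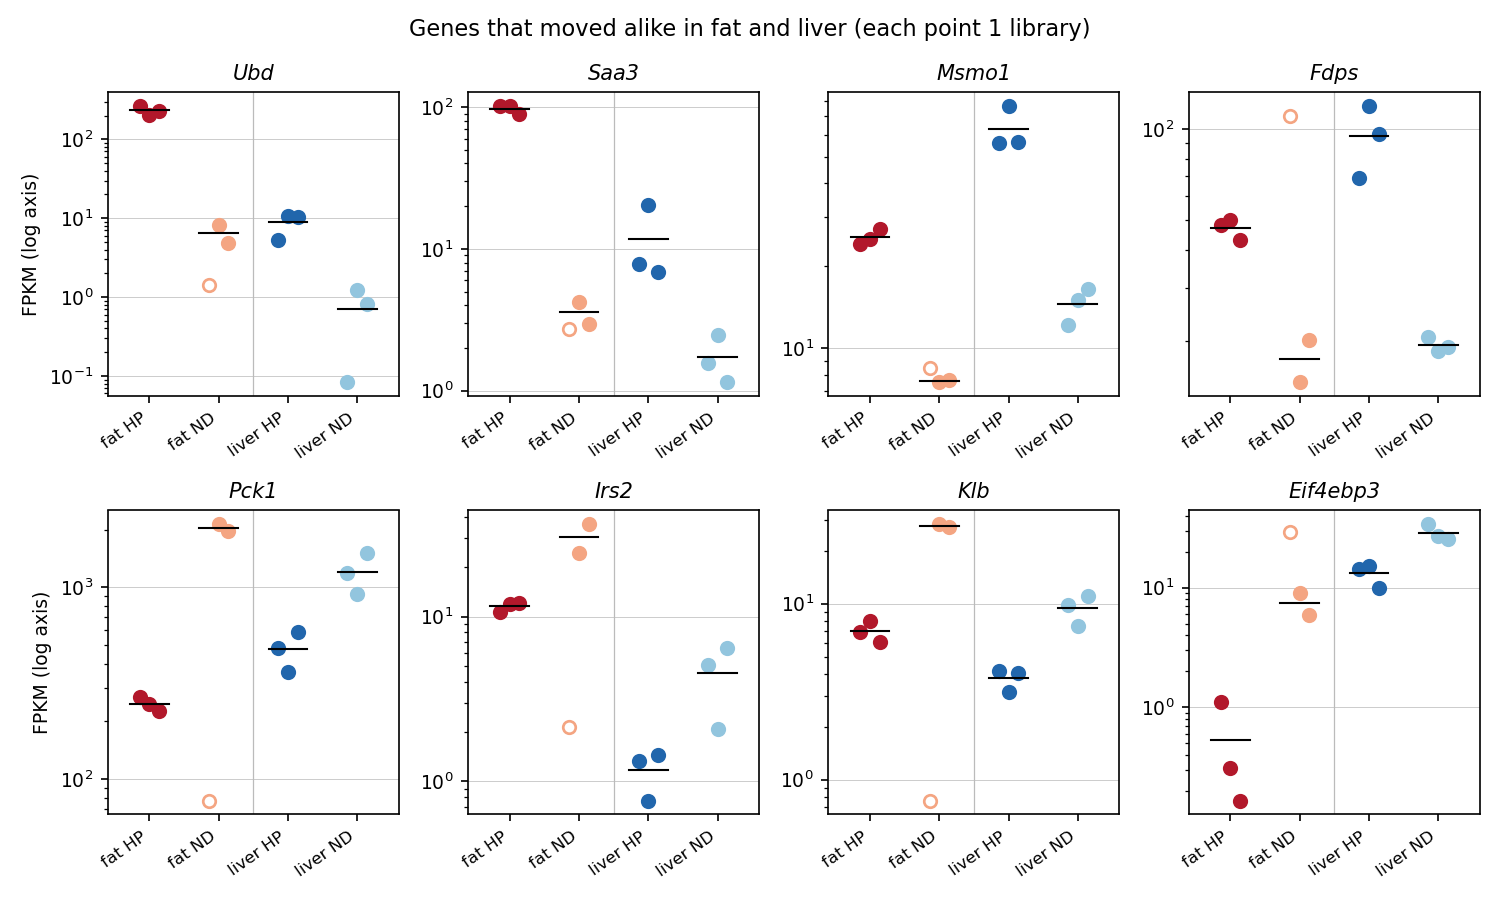
FPKM on log axes of 4 genes higher in both HP tissues (top) and 4 lower in both (bottom); each point is 1 library, bars are means of 3 libraries (of fat ND 2 and 3 in fat ND), and the open circle is fat ND 1. For Pck1, Irs2 and Klb the open circle lies below the fat HP libraries, and for Fdps it lies above them.

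Among the named genes the largest positive tissue differences, in Mmp12, F7, Il1rn and Atp6v0d2, came from rises in fat. F7, coagulation factor VII of the extrinsic pathway, had 61.0, 32 and 38.9 FPKM in fat HP libraries, against 0.285 and 0.297 FPKM in fat ND 2 and 3 and 0.403 FPKM in fat ND 1. In liver, its usual source, F7 had 32.7, 30.6 and 24.2 FPKM in liver HP libraries, against 35.1, 42.7 and 37.1 FPKM in liver ND libraries. Fat libraries of HP mice thus reached the liver's level, while all 3 fat ND libraries, fat ND 1 included, were below 1 FPKM. The tissue difference was 5.46 ± 0.31 over 11 libraries and 5.42 ± 0.44 over 12 (adjusted p = 2.48e-06 and 0.000228), the smallest adjusted p over 12 libraries. F10, coagulation factor X, had 8.41 to 10.9 FPKM in fat HP libraries, against 0.206 to 0.39 FPKM in fat ND libraries, with a tissue difference of 3.12 ± 0.20 (adjusted p = 2.57e-06, and 0.000826 over 12). Hpx, the plasma haem scavenger hemopexin, had 4.50 to 8.87 FPKM in fat HP libraries, against 0.13 to 0.377 FPKM in fat ND libraries (tissue difference 2.31 ± 0.35, adjusted p = 0.0009, and 0.0565 over 12). The summed level of hepatocyte markers, led by Alb, was 3.77 to 4.93 FPKM in fat HP libraries, against 3.23 to 9.28 FPKM in fat ND libraries, so the groups overlapped.

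Mmp12, the elastase of macrophages, had 969.8, 828 and 1378 FPKM in fat HP libraries, against 9.70 and 5.95 FPKM in fat ND 2 and 3 and 0.0959 FPKM in fat ND 1. In liver Mmp12 had 1.23 to 3.30 FPKM in HP libraries, against 0.0738 to 0.326 FPKM in ND libraries. Its tissue difference was 5.68 ± 0.42 (adjusted p = 7.37e-06). Atp6v0d2, a subunit of the proton pump of osteoclasts and macrophages, had 165, 164 and 196 FPKM in fat HP libraries, against 1.42 and 1.16 FPKM in fat ND 2 and 3 and 2.04 FPKM in fat ND 1. In liver Atp6v0d2 had 2.92 to 3.32 FPKM in HP libraries, against 0.304 to 1.91 FPKM in ND libraries. Both also rose in liver, by 1.23 and 1.18, at levels below 4 FPKM. Il1rn, the natural inhibitor of the interleukin 1 receptor, had 56.9, 58.2 and 74.3 FPKM in fat HP libraries, against 0.7 and 0.154 FPKM in fat ND 2 and 3 and 0 FPKM in fat ND 1. In liver Il1rn had 4.18 to 6.85 FPKM in HP libraries, against 2.86 to 5.82 FPKM in ND libraries, which overlapped. Hk3 (the hexokinase of myeloid cells), the leukocyte receptor genes Cd84 and Cd300c2, and Zranb3 (a DNA annealing helicase) had tissue differences between 4.31 and 4.63. Dnmt3a, a DNA methyltransferase, and Lcp1, the actin-bundling protein of leukocytes, were among the 8 smallest p-values over 12 libraries, with tissue differences of 3.77 and 4.38.

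The named genes described next had a negative tissue difference with either a fall in fat or a rise in liver. Cyp2e1, an ethanol- and fatty acid-oxidising cytochrome, had 106, 111 and 65.3 FPKM in fat HP libraries, against 1612 and 1492 FPKM in fat ND 2 and 3 and 102 FPKM in fat ND 1. In liver Cyp2e1 had 5761 to 7481 FPKM in HP libraries, against 6231 to 7218 FPKM in ND libraries, which overlapped. Its tissue difference was -4.02 ± 0.31 over 11 libraries (adjusted p = 8.80e-06) and did not pass over 12 (adjusted p = 0.165), with fat ND 1 within the fat HP values. Agt, the precursor of angiotensin, had 15.4, 14.7 and 8.31 FPKM in fat HP libraries, against 106 and 121 FPKM in fat ND 2 and 3 and 101 FPKM in fat ND 1. In liver Agt had 306 to 373 FPKM in HP libraries, against 225 to 318 FPKM in ND libraries. All 3 fat ND libraries were alike for Agt, and its tissue difference passed in both fits (-3.50 ± 0.32 and -3.44 ± 0.49, adjusted p = 2.46e-05 and 0.00304). The crystallin gene Crygn was listed at 0 in the 3 fat HP libraries, against 6.89 and 5.52 FPKM in fat ND 2 and 3 and 14.5 FPKM in fat ND 1.

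For Thrsp, Cidea, Lgals1 and Mgst3 the liver change passed and the fat change did not. Thrsp, a lipogenic regulator, had 75.4, 98.3 and 144 FPKM in liver HP libraries, against 9.32, 19.3 and 8.59 FPKM in liver ND libraries, while fat held 111 to 177 FPKM in HP and 112 to 271 FPKM in ND 2 and 3, which overlapped. Cidea, a protein that enlarges lipid droplets, had 15.4, 7.66 and 6.11 FPKM in liver HP libraries, against 0.26 and 0.113 FPKM and a listed 0 in liver ND libraries. Lgals1, the lectin galectin-1, had 84.7, 143 and 133 FPKM in liver HP libraries, against 5.59, 20.6 and 7.31 FPKM in liver ND libraries. Mgst3, a microsomal glutathione transferase, had 13, 35.8 and 30.6 FPKM in liver HP libraries, against 2.30, 5.80 and 3.61 FPKM in liver ND libraries. The liver groups did not overlap for any of these 4, and none of their fat changes passed over 11 libraries (adjusted p = 0.742, 0.488, 0.671 and 0.222). Only for Cidea among the 4 did the tissue difference also pass over 12 libraries (adjusted p = 0.0262).

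Gene lists were read beside 12.2% of all genes with a positive and 9.15% with a negative tissue difference. The list sizes given are of members that passed the filter. A gene could pass it in a tissue through the 3 libraries of 1 diet alone. Mmp12 did so through HP livers, and F7, F10, Hpx and Il1rn through HP fat. For such genes the filter favours the direction seen in that tissue. Of 20 general macrophage genes, 17 had a positive and none a negative tissue difference over 11 libraries (12 and 0 over 12). Their median change was 2.49 in fat and 0.05 in liver, with 18 higher and none lower in fat and 3 higher and 2 lower in liver (1 and 3 after rescaling to the same sum, and 7 and 4 with the block). Cathepsin S (Ctss), a cysteine protease of antigen-presenting cells, had 902, 719 and 913 FPKM in fat HP libraries, against 45.9 and 34.3 FPKM in fat ND 2 and 3 and 5.26 FPKM in fat ND 1. In liver Ctss had 12.9 to 23.2 FPKM in HP libraries, against 12.2 to 17.5 FPKM in ND libraries. The 3 higher in liver were Cd68, Fcer1g and C1qc, and the 2 lower were Adgre1 and Mrc1. The summed level of the 4 macrophage markers Adgre1, Cd68, Csf1r and C1qa was 911 to 1224 FPKM in fat HP libraries, against 125 and 147 FPKM in fat ND 3 and 2 and 65.1 FPKM in fat ND 1. In liver it was 27.1 to 44.7 FPKM in HP, against 23.2 to 32.1 FPKM in ND libraries, which overlapped.

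Of 14 genes of lipid-associated macrophages, 11 had a positive and 1, Apoe, a negative tissue difference (7 and 0 over 12 libraries), with medians of 2.48 in fat and 0.58 in liver. Lgals3, the macrophage lectin galectin-3, had 1529, 1117 and 1627 FPKM in fat HP libraries, against 101 and 70.8 FPKM in fat ND 2 and 3 and 27.5 FPKM in fat ND 1. In liver Lgals3 had 3.83 to 11.3 FPKM in HP libraries, against 1.98 to 3.31 FPKM in ND libraries, so it was higher in both tissues. Fabp5, a fatty acid-binding protein of macrophages and skin, was an opposite gene: it had 530.1 to 639 FPKM in fat HP libraries, against 147 and 107 FPKM in fat ND 2 and 3 and 24.8 FPKM in fat ND 1. In liver Fabp5 had 14.3 to 19.4 FPKM in HP libraries, against 21.6 to 41.9 FPKM in ND libraries. Plin2, a lipid droplet coat protein, rose by 2.26 ± 0.26 in fat while its liver change was -0.30 ± 0.20 (adjusted p of the difference = 0.00029, and 0.0418 over 12 libraries, where it was 0.0528 with the block). The macrophage markers given above moved with these lists and with the lysosomal genes, and their part in the results was not tested.

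Of 28 lysosomal genes, 21 had a positive and none a negative tissue difference (8 and 0 over 12 libraries). In fat 24 were higher and none lower, and in liver 9 were higher and 2 lower, a liver split that turned to 3 higher and 4 lower after rescaling to the same sum and to 5 and 5 after quantile normalization, and was 11 and 4 with the block. Gusb, the lysosomal enzyme beta-glucuronidase, had 185, 154 and 208 FPKM in fat HP libraries, against 26.3 and 24.4 FPKM in fat ND 2 and 3 and 6.19 FPKM in fat ND 1. In liver Gusb had 7.26 to 9.60 FPKM in HP libraries, against 7.27 to 9.78 FPKM in ND libraries. Gla, alpha-galactosidase A, had 20.7, 21.2 and 27.9 FPKM in fat HP libraries, against 1.97 and 1.97 FPKM in fat ND 2 and 3 and 0.595 FPKM in fat ND 1. In liver Gla had 1.13 to 1.37 FPKM in HP libraries, against 1.01 to 1.18 FPKM in ND libraries. Both rose in fat over ranges that did not overlap, with liver values that did. The opposite members included Ctsh, a cathepsin, with a tissue difference of 1.85 ± 0.24 (adjusted p = 0.000312), whose fat rise did not pass with the block (adjusted p = 0.0522). The 9 members higher in both tissues included Hexa, a chain of beta-hexosaminidase, which rose more in fat (0.95, adjusted p = 0.011, and 0.0591 with the block).

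Of 24 listed chemokine and cytokine genes, 12 passed the filter. Of these, 8 had a positive and 2 a negative tissue difference (3 and 0 over 12 libraries). Ccl2, which draws monocytes into tissue, rose by 3.03 ± 0.25 in fat and 1.21 ± 0.18 in liver (adjusted p of the difference = 0.00168). The interferon-induced Cxcl9 was an opposite gene, lower in HP fat (-0.83 ± 0.26, adjusted p = 0.0389, and 0.165 with the block) and higher in HP liver (0.68 ± 0.20), and Cxcl10 was called in liver alone (1.01 ± 0.21). Of 17 complement genes, 7 had a positive and 2 a negative difference (0 and 1 over 12 libraries, and 5 and 4 over 11 with the block). The chains of C1q, which macrophages secrete, had positive differences of 1.34 to 2.21, while the liver's C3 was an opposite gene: it had 445, 467 and 442 FPKM in fat HP libraries, against 187 and 234 FPKM in fat ND 2 and 3 and 22.9 FPKM in fat ND 1. In liver C3 had 844, 761 and 830.0 FPKM in HP libraries, against 1792, 1357 and 1678 FPKM in ND libraries (tissue difference 2.08 ± 0.23, adjusted p = 9.78e-05, and 0.0571 over 12). The matrix gene Fn1, fibronectin, had the same pattern, with changes of 1.15 ± 0.18 in fat and -0.87 ± 0.14 in liver. Of 19 matrix and fibroblast genes, 13 were higher and none lower in HP fat and 6 were higher and 1 lower in HP liver, and 3 had a positive and none a negative tissue difference (none in either direction over 12 libraries). With the block 6 were higher in fat. Without liver HP 2 and 3, and so with liver HP 1 alone, 11 had a positive difference.

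**Figure D4:**
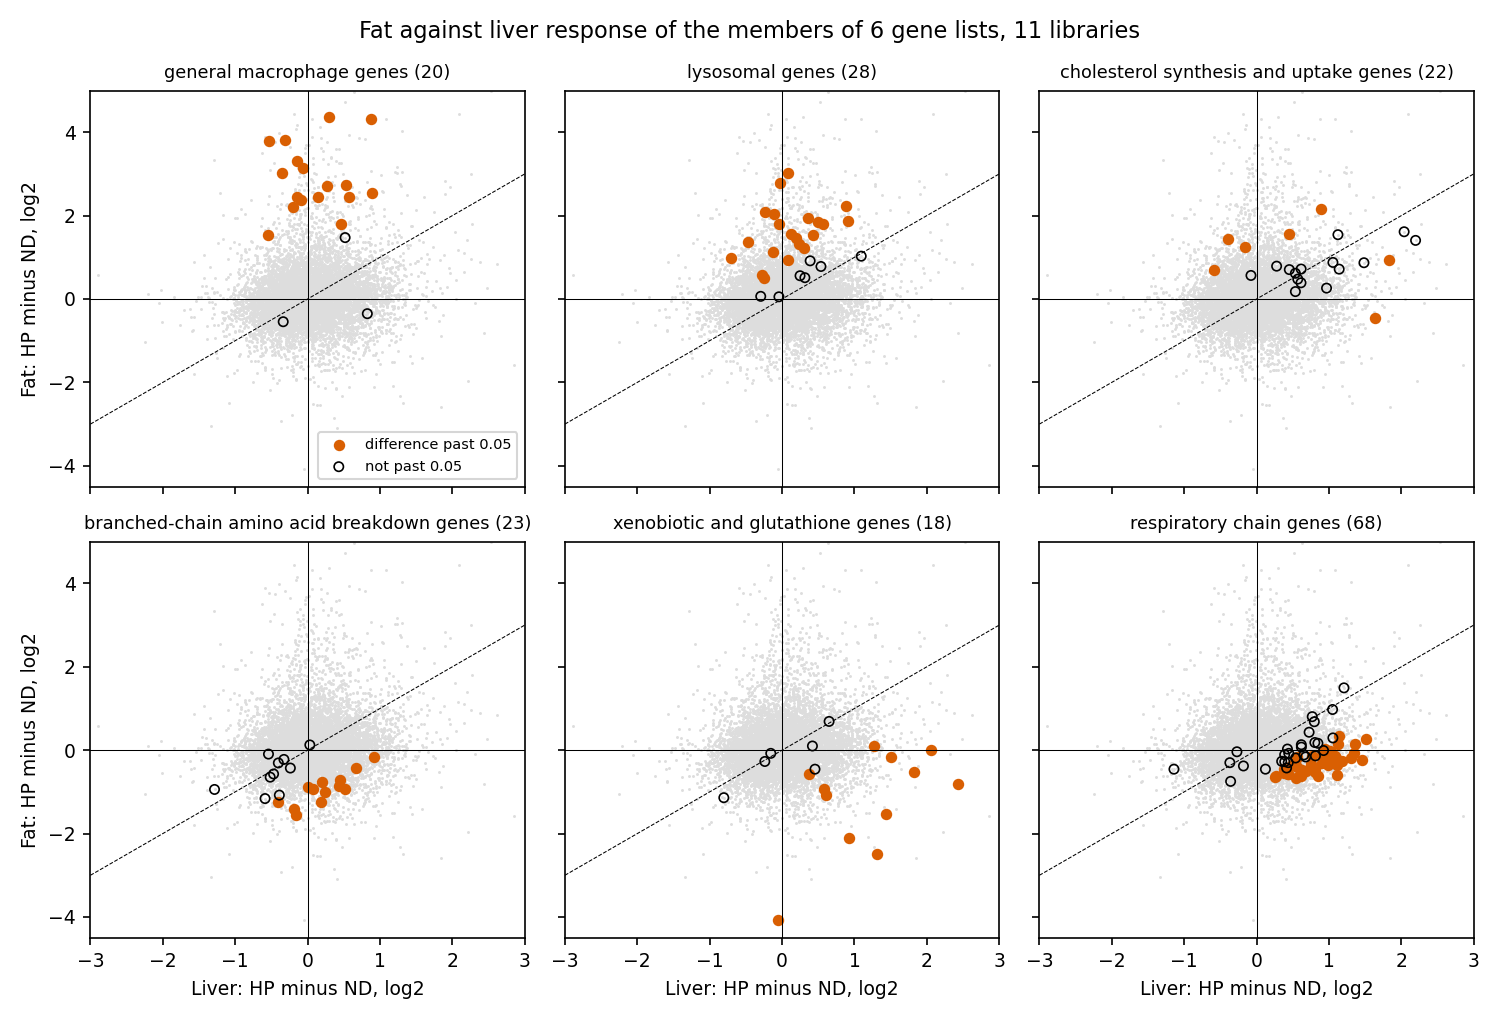
HP minus ND on log2(FPKM + 1) in liver (horizontal) against fat (vertical) for the members of 6 gene lists over 11 libraries, with all genes compared in grey and the dashed line where both responses are equal; axes are limited to the range shown. Filled points passed the threshold of the tissue difference: 17 of 20 macrophage genes lie above the line and 40 of 68 respiratory chain genes below it.

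Lists of respiratory chain, amino acid breakdown, detoxification and adipocyte genes had negative differences and none or few positive ones. Of 68 respiratory chain genes, 40 had a negative and none a positive tissue difference over 11 libraries. After rescaling to the same sum 30 were negative, and the median difference was -0.61 in place of -0.91. In fat 2 were higher and 6 lower (2 and 19 after quantile normalization, and none in either direction with the block), and in liver 50 were higher and 2 lower, with medians of -0.19 in fat and 0.76 in liver. Ndufv3, a subunit of complex I, had 92.7, 93.4 and 80.2 FPKM in fat HP libraries, against 131 and 82.9 FPKM in fat ND 2 and 3 and 348 FPKM in fat ND 1. In liver Ndufv3 had 146, 237 and 153 FPKM in HP libraries, against 61.8, 76.8 and 52.8 FPKM in ND libraries. Its liver groups did not overlap and its fat groups did (tissue difference -1.68 ± 0.34, adjusted p = 0.00523, and 0.126 over 12 libraries). Cox5b, a subunit of complex IV, was higher in both tissues, by 1.49 ± 0.35 and 1.21 ± 0.26 (adjusted p in fat = 0.00997, and 0.117 with the block), and Ndufs1, the largest subunit of complex I, was lower in liver (-1.14 ± 0.29). Over 12 libraries none of the 68 tissue differences passed, while 52 were higher and 1 lower in liver. These counts were smaller in a fit without liver HP 2 and 3, which held skeletal muscle markers, and 1 HP liver was left in it. In that library, liver HP 1, the muscle markers summed to 0.120 FPKM. It lay above every ND liver for all 50 genes called higher in liver over 11 libraries. Those genes were called with liver HP 1 among the HP livers, so this outcome was nearly fixed and is no further support. The part of the muscle markers in these counts was not tested.

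Of 23 genes of branched-chain amino acid breakdown, 13 had a negative and none a positive tissue difference (9 negative after rescaling to the same sum). In HP fat 14 were lower and none higher. In liver 4 were higher and 5 lower, which became 2 and 9 after rescaling and 5 and 9 with the block. Ivd, isovaleryl-CoA dehydrogenase of leucine breakdown, had 48.0, 58.0 and 60.1 FPKM in fat HP libraries, against 152 and 144 FPKM in fat ND 2 and 3 and 29.4 FPKM in fat ND 1. In liver Ivd had 88.1 to 97.5 FPKM in HP libraries, against 104 to 109.7 FPKM in ND libraries. Bckdha, a chain of the branched-chain ketoacid dehydrogenase, was an opposite gene with like values in the 3 fat ND libraries: it had 60.8, 50.3 and 58.5 FPKM in fat HP libraries, against 104 and 102 FPKM in fat ND 2 and 3 and 97.8 FPKM in fat ND 1. In liver Bckdha had 179, 202 and 171 FPKM in HP libraries, against 135, 147 and 126 FPKM in ND libraries. The tissue differences of Ivd and Bckdha were -1.22 ± 0.18 and -1.29 ± 0.19 (adjusted p = 0.000652 and 0.000694), and over 12 libraries no member of the list passed.

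Of 18 xenobiotic and glutathione genes, 12 had a negative and none a positive tissue difference (2 negative over 12 libraries, Gsta4 and Gstm2). In fat 1 was higher and 8 lower, and in liver 13 were higher and 1 lower. A set of 6 was lower in fat and higher in liver: Gsta4, Gsta3, Gstt1, Gstt2, Mgst1 and Gstm4. With the block 4 of these 6 were called in both tissues, and the fat falls of Mgst1 and Gstm4 did not pass (adjusted p = 0.0711 and 0.119). The difference of Gstm2 over 12 libraries did not pass with it (adjusted p = 0.0833). Gstt1 had 25.7, 21.9 and 24.0 FPKM in fat HP libraries, against 67.2 and 73.9 FPKM in fat ND 2 and 3 and 22.5 FPKM in fat ND 1. In liver Gstt1 had 412, 511 and 436 FPKM in HP libraries, against 145, 215 and 147 FPKM in ND libraries. The liver groups did not overlap, and in fat the ND 1 library lay among the HP libraries (tissue difference -2.96 ± 0.26, adjusted p = 1.76e-05, and 0.0551 over 12). Nqo1 and Ugdh, like the transferases targets of the transcription factor NRF2, rose in liver by 1.51 and 1.27. Their tissue differences were -1.68 and -1.16 (adjusted p = 0.00884 and 0.00259, and 0.0767 for Nqo1 with the block).

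Of 24 listed adipocyte identity genes, 15 passed the filter. Of these, 12 had a negative and none a positive tissue difference (2 over 12 libraries, Cfd and Cidea). In fat 8 were lower and 1 higher, and in liver 8 were higher and 1 lower. Members near 0 in ND livers, such as Cidea, could enter only through the 3 HP livers, so the filter favours rises in liver in this list. After rescaling to the same sum 11 differences were negative and 1 positive. Adrb3, the beta-3 adrenoceptor, and Nrg4, a secreted growth factor, changed in fat by -2.33 and -2.52 with liver changes of 0.48 and 0.074 that did not pass. Pparg, the master regulator of fat cell genes, and Fabp4, its target, rose in liver by 1.21 and 1.87 with fat changes of -0.46 and -0.38 that did not pass. Of 18 lipid droplet genes, 8 had a negative and 2 a positive difference (1 and 1 over 12, and 4 and 1 over 11 with the block). After rescaling 5 were negative and 2 positive. Of 16 fatty acid synthesis genes, 6 had a negative and none a positive difference, from either side: Fasn and Srebf1 rose in liver (1.85 and 0.88), while Acaca and Scd1 fell in fat (-1.63 and -1.41). After rescaling to the same sum 4 were negative and 2 positive, and the median difference was 0.06, in place of -0.24. With the block neither the fat fall nor the tissue difference of Scd1 passed (adjusted p = 0.28 and 0.204). Of 16 genes of triglyceride synthesis and lipolysis, 5 had a negative and none a positive difference, among them the lipases Lipe and Pnpla2, which were lower in HP fat (-0.88 and -0.99). After rescaling 4 were negative and 2 positive, and with the block the tissue difference of Pnpla2 did not pass (adjusted p = 0.0692). No difference of the fatty acid and triglyceride synthesis lists passed over 12 libraries. Of 33 fatty acid oxidation and PPAR alpha target genes, 5 had a positive and 6 a negative difference: Cpt1a, the carnitine palmitoyltransferase that admits fatty acids to mitochondria, was an opposite gene (0.65 ± 0.15 in fat and -0.96 ± 0.12 in liver, adjusted p of the difference = 0.000178), as was the liver hormone gene Fgf21 (-0.85 ± 0.23 in fat and 0.83 ± 0.17 in liver, adjusted p of the difference = 0.00196). Over 12 libraries no tissue difference and no fat change of these 33 genes passed, with an adjusted p of the difference of 0.0585 for Cpt1a and 0.176 for Fgf21. With the block over 11 libraries the fat changes of Cpt1a and Fgf21 did not pass (adjusted p = 0.0621 and 0.224).

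**Figure D5:**
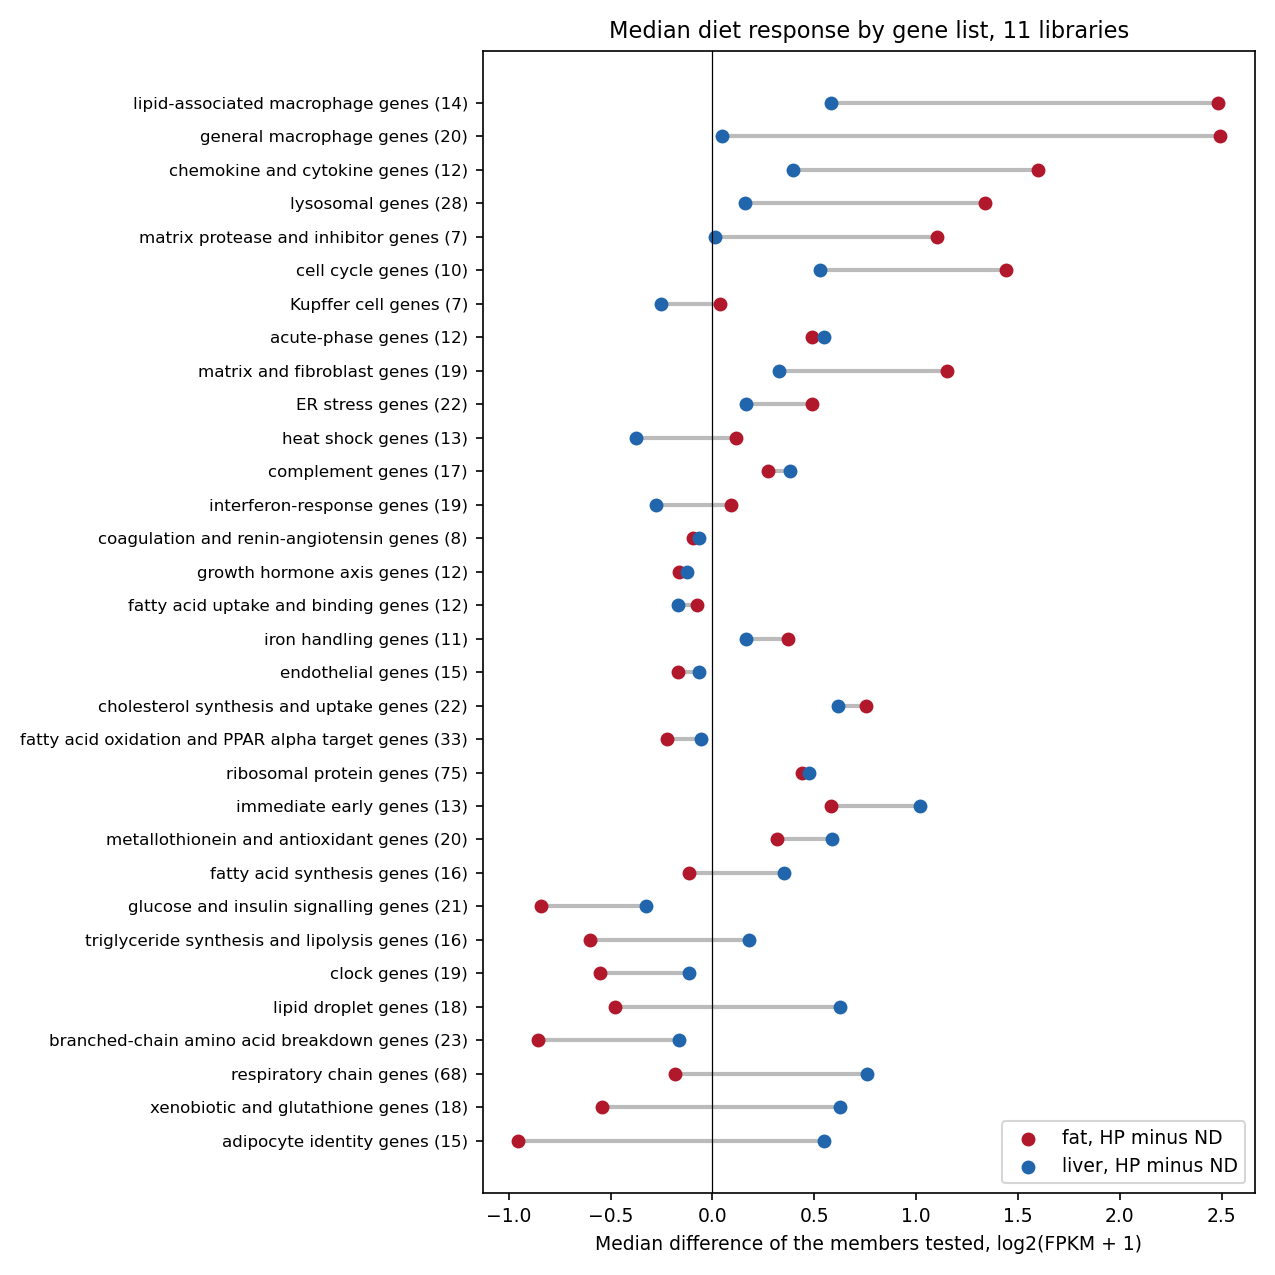
Median HP minus ND difference on log2(FPKM + 1) of the members tested in each gene list with 7 or more such members (their number in brackets), in fat (red) and liver (blue) over 11 libraries, ordered by the median tissue difference. Fat lies far to the right for macrophage lists, and the 2 tissues lie on either side of 0 for adipocyte identity, xenobiotic, respiratory chain and lipid droplet genes.

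Other lists had few called differences or members in both directions. Of 75 ribosomal protein genes, 4 had a positive and none a negative difference, with 14 higher in fat and 36 higher and 3 lower in liver. After rescaling to the same sum 16 had a positive difference and 34 were higher in fat, and after quantile normalization 21 were higher and 7 lower in liver. With the block 2 had a positive difference, 4 were higher in fat and 55 higher in liver. Of 13 immediate early genes, 5 were higher in fat and 8 in liver with none lower, and 1 had a positive (Atf3, 4.21 ± 0.40) and 1 a negative difference (Jun, -1.52 ± 0.50, adjusted p = 0.0489, and 0.131 with the block). Of 25 listed cell cycle genes, 10 passed the filter. Of these, 8 were higher in fat and 5 in liver with none lower, a direction the filter favours for members below 1 FPKM in ND libraries. A positive difference was called in 4, among them the replication helicase genes Mcm2, Mcm3 and Mcm6. Mcm2 did not pass with the block (adjusted p = 0.0815). Of 13 heat shock genes, 4 had a positive and 1 a negative difference, with 5 lower in liver (with the block none positive and 1 negative). Of 15 endothelial genes, 1 differed. Of 19 clock genes, 3 had a negative difference, against 1 positive and 1 negative after rescaling to the same sum, 5 negative after quantile normalization and 1 negative with the block. Of 19 interferon-response genes, 4 had a positive difference and none a negative one. Over 12 libraries, 1 tissue difference passed among the immediate early, 1 among the cell cycle and 1 among the interferon-response genes, and none among the ribosomal protein, heat shock, endothelial and clock genes.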

How the data were processed

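Gene expression was measured by RNA-seq in epididymal fat and liver. The authors deposited a table of FPKM values for 23474 genes, of which 22671 have a symbol. The tools named per the submitters' processing notes are Cufflinks 2.1.1, STAR 2.4.0 and CASAVA 1.8.2. Neither genome build nor annotation, and no strand setting, is given in the sources used here. Overlapping and antisense genes and near-identical copies may therefore share fragments. FPKM values carry no read counts, so the depth of each library is unknown and no counting interval is given.

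Genes with 1 FPKM or more in at least 3 columns of each tissue (9875) were fitted on log2(FPKM + 1) in R 4.3.3 by limma 3.58.1, using 1 mean per group, 1 relative weight per tissue, a variance trend and Benjamini-Hochberg adjustment over all genes tested at 0.05. Differences on this scale understate the change of genes with low values. The tissue difference is fat HP minus ND, minus liver HP minus ND. Genes changed alike or oppositely were called in both tissues. The fit was repeated without fat ND 1. Figures were drawn with matplotlib 3.10.9, and the fit was tested on simulated data.

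The members, the 36 gene lists, the 9 lists of cell type markers and the tests were chosen with earlier results of these data known, so the lists are no independent support. Named genes averaged 5 FPKM or more in their highest group and had no predicted or clone name. Those named for an alike or opposite change or for the size of the tissue difference also had the same sign in both fits. Genes named for an alike or opposite change were also required not to overlap between HP and ND in either tissue, over 11 libraries. Non-overlap of these genes is thus a condition of the choice and no further support. Up to 8 were taken of each class, ranked by the tissue difference or, for alike genes, by the smaller change, plus the 8 smallest p-values over 12 libraries and up to 4 members of each list. Other genes named with a list were chosen after their values were seen. The labels do not say what a replicate number marks. By the values, deviations from the group means correlated above 0.1 in all 6 same-numbered HP and ND pairs within a tissue (0.101 to 0.544). Of 12 fat and liver pairs 3 did. Within a tissue 4 of the 6 correlated best with their own number, in fat only number 1 (0.544), where both libraries carried spermatid transcripts. Pairing is thus not shown for numbers 2 and 3 in fat. Alternatives changed the pseudocount, the filter, the scaling, the weights, the groups fitted, the trend and the replicate block, and left out each library in turn. A correction for transcript length and GC content, the replicate block within tissue and fits without the libraries that carry spermatid or muscle transcripts were chosen after seeing the data.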

Additional observations from a re-analysis of the deposited data

Results flagged for a closer look

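The HP response differed between fat and liver by the test of the difference itself (limma, adjusted p below 0.05 over 11 libraries) in all the genes given here, with the tissue difference on log2(FPKM + 1) as fat minus liver. Among genes higher in HP fat and lower in HP liver it was 4.62 for Pik3ap1, 4.48 for Nceh1, 4.31 for Adgre1, 4.13 for Lipa, 3.75 for Sdc1, 3.61 for Tfr2, 3.17 for Taok3 and 3.15 for Slc25a13. Among genes lower in HP fat and higher in HP liver it was -9.11 for Cfd, -4.44 for Plin4, -4.44 for Mogat1, -4.18 for Orm3, -3.81 for Gsta4, -3.60 for Car3, -3.02 for Gsta3 and -2.99 for C2.

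Among named genes the largest other positive differences were 5.68 for Mmp12, 5.46 for F7, 5.23 for Il1rn, 5.08 for Atp6v0d2, 4.63 for Zranb3, 4.38 for Cd84, 4.34 for Cd300c2 and 4.31 for Hk3. The negative ones were -4.02 for Cyp2e1, -3.62 for Cidea, -3.50 for Agt, -3.28 for Thrsp, -3.25 for Mgst3, -3.21 for Crygn, -3.16 for Lgals1 and -2.96 for Gstt1. Over all 12 libraries the difference did not pass for Plin4, Mogat1, Car3, Gsta3, C2, Cyp2e1, Thrsp, Mgst3, Lgals1 and Gstt1.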

How the results depend on the processing

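Counts of genes depended on fat ND 1, on other single libraries and on several settings, and the cause of the shifts given here was not tested. Over 12 libraries the number of called tissue differences was 130 with a pseudocount of 0.1, 412 after quantile normalization, 381 with equal weights and 121 with the replicate block within diet. Equal weights called 857 genes in fat, 14 in liver, 5 alike and 2 oppositely. Each tissue fitted alone gave 140 genes in fat and 24 alike, alike genes were 19 without the filter and 26 after rescaling to the same sum, and opposite genes were 39 after quantile normalization. Quantile normalization made 79.1% of the 12-library tissue differences positive, against 91.4%. The share of higher liver calls over 12 libraries was 57.0%, against 32.8% after rescaling to the same sum.

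Over 11 libraries, alike genes were 195 and opposite genes 86 without the filter. The fit of all groups called 327 tissue differences, 340 genes in fat, 72 alike and 25 oppositely. Leaving out fat ND 1, fat ND 3 and fat HP 1, which carry spermatid transcripts, left 1 fat ND library, assumed to vary like the others. That fit, the same for both sets, called 3589 tissue differences, 3495 genes in fat, 517 alike and 528 oppositely. Without liver HP 2 and 3, 1219 tissue differences, 167 genes in liver, 44 alike and 19 opposite genes were called over 11 libraries, against 166 in liver, 7 alike and 3 oppositely over 12.

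Leaving out 1 library, the 12-library tissue differences ranged between 30 (without fat HP 3) and 2107 (without fat ND 1), the fat calls between 36 and 2204, the liver calls between 1189 and 2826, alike genes between 3 and 478 and opposite genes between 5 and 249. Over 11 libraries the ranges were 1125 (without fat HP 3) to 3040 (without fat ND 3) for the tissue difference, 1013 to 3158 in fat, 1357 (without liver ND 1) to 3038 (without liver ND 2) in liver, 226 to 662 alike and 110 to 409 oppositely.

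Pairing of same-numbered fat and liver libraries was not shown by the values, with correlations of -0.277 to 0.311. Of the 12 such pairs, 3 correlated best with their own number. These correlations cannot tell whether the libraries share animals. With the replicate block within tissue, chosen after seeing the data, 840 genes in fat, 227 alike and 154 opposite genes were called over 11 libraries and 4092 genes in liver over 12. Over 11 libraries fat HP 1 did not enter the fat change of this fit. Among the 80 named results this block ended 7 calls, given with the genes, and changed no other. With 1 replicate block across tissues, 1697 tissue differences, 1389 genes in fat and 4108 in liver were called over 11 libraries, and 1226 tissue differences with the block within diet. Of 1920 values of 80 named results under the alternatives to the 11-library fit, 1803 stayed on the same side of the threshold. A further 117 lost the call and 0 turned their direction. These results were chosen as called and with the same sign over 12 libraries, so few turns of direction could come up. Putting fat ND 1 back was not among these alternatives. Depth is unknown, and genes near 1 FPKM are limited by the pseudocount.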

Other observations

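Lists not described with the main comparisons held members on both sides. Of 22 endoplasmic reticulum stress genes, 4 had a positive and 1 a negative tissue difference over 11 libraries, and the median difference was 0.47. Edem1, which helps discard misfolded proteins, was higher in fat and lower in liver (0.51 and -0.40), and Trib3, a stress-induced pseudokinase, was lower in fat and higher in liver (-0.84 and 0.53). With the replicate number as a block within each tissue, neither fat change passed (adjusted p = 0.205 and 0.0843). In liver 6 of these genes were higher and 2 lower, which became 2 and 3 after rescaling to the same sum. Of 11 iron handling genes, 2 had a positive and 1 a negative difference: Hmox1, the haem oxygenase, rose in both tissues and more in fat (2.58 against 1.04), and the transferrin gene Trf was lower in HP fat (-0.70). With the block neither the fat change nor the tissue difference of Trf passed (adjusted p = 0.183 and 0.0884). Of 12 acute-phase genes, 4 had a positive and 2 a negative difference. The haptoglobin gene Hp was higher in both tissues (2.01 and 0.85), and the ceruloplasmin gene Cp was lower in fat and higher in liver (-1.54 and 0.59). Of 8 coagulation and renin-angiotensin genes, 4 had a positive and 1 a negative difference (2 and 1 with the block).

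Of 12 fatty acid uptake and binding genes, 4 had a positive and 2 a negative difference, and Cd36, a fatty acid transporter, was called in liver alone (1.04; adjusted p of the difference = 0.0439, and 0.228 with the block). Of 12 growth hormone axis genes, 2 had a positive and 2 a negative difference. The largest was Socs2, which dampens growth hormone signalling, with changes of 0.22 in fat and -2.03 in liver. With the block 1 was positive and 1 negative, and Socs2 did not pass (adjusted p = 0.149). Of 20 metallothionein and antioxidant genes, 3 had a positive and 4 a negative difference, with 11 higher and none lower in liver. Gpx4, which removes lipid peroxides, rose in liver by 1.62 with a fat change of -0.31. Of 7 matrix protease and inhibitor genes, 4 had a positive and 1 a negative difference, among them Mmp14, a membrane-bound collagenase, higher in fat and lower in liver (1.23 and -0.71). Of 7 Kupffer cell genes 3, and of 6 MHC class II genes 1, had a positive difference, with none negative. In fat 5 of the MHC class II genes were higher. After rescaling to the same sum 4 had a positive difference and all 6 were higher in fat, and 3 had a positive difference with the block. Of 3 thermogenic and beta adrenoceptor genes, 1 had a positive and 2 a negative difference, and of 2 neutrophil and mast cell genes 1 had a positive one, S100a8, which was listed at 0 in fat ND 1. No T, B or natural killer cell gene passed the filter in both tissues. Over 12 libraries the called differences of the lists in these paragraphs were Tfr2, F7, F10, Fabp5, Fabp7, Mmp14, Mmp19, Agt and Cidea, of which Fabp7 and Mmp14 did not pass with the block (adjusted p = 0.0881 and 0.0669).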
